A study of Rattus norvegicus with 24 samples.

Results

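Here 10 genes were followed across 8 groups of cultured rat heart cells: 7 (Agpat5, Anpep, Ddt, Dynlt3, Galc, Iscu and Med30) whose counts were higher, and 3 (Gca, Vnn1 and Necab1) whose counts were lower, with every microRNA mimic than with the control mimic. The 10 were chosen by that direction from the 21767 gene symbols of the count table, with the values of these same libraries in view. Their differences from the control mimic are therefore given as a description, with no test. All 10 passed the filter on low counts that left 14303 genes for testing.

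The cells were neonatal rat ventricular myocytes (NRVMs), heart muscle cells isolated from newborn Sprague-Dawley rats and kept in culture; the labels give no further genotype and do not say which animals or days stand behind a replicate. The 8 groups of 3 libraries crossed 4 mimic conditions (negative control, miR-222-3p, miR-455-3p, and the last 2 together) with doxorubicin or control treatment, the latter called untreated below. Every group was transfected, at 5 nM of each mimic, so wells with both mimics received 5 nM of each; doxorubicin began 48 h later and lasted 24 h. Its concentration is 4 uM in the sample protocol and 4 mM in the series text. No group without a mimic was analysed here, and all 6 comparisons of a mimic condition with the control mimic rest on the same 3 untreated and 3 doxorubicin control libraries. A difference set by the control mimic and one set by all the other mimics therefore cannot be told apart. If replicates share a preparation of cells, the p-values reflect technical spread only.

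A microRNA mimic is a short double-stranded RNA that is taken up by Argonaute proteins in the way a natural microRNA is. It pairs through its seed, the bases near its 5′ end, with sites that lie mostly in the 3′ UTRs of mRNAs, and the paired mRNAs are usually lowered. Different seeds usually recognise different mRNAs, and mRNAs that are not targets can move through the targets' own effects. Doxorubicin is an anthracycline that poisons topoisomerase II and is known for its toxicity to the heart.

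The mature sequences are shown because the 2 microRNAs that accompany the same 10 genes have different seeds. They are the rat sequences of RefSeq (build GRCr8), 5′ to 3′, with the seed (bases 2 to 8) in capitals; the products themselves are not given by sequence in the labels. The first lies at chrX:6022682-6022702 (+) and the second at chr5:81704881-81704902 (+).
rno-miR-222-3p: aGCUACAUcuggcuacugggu
rno-miR-455-3p: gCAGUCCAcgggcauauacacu
The seeds GCUACAU and CAGUCCA have the same base at 1 of 7 positions. A full seed match in an mRNA would read AUGUAGC for miR-222-3p and UGGACUG for miR-455-3p; 3′ UTR sequences of the 10 genes were not used here.

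Libraries held 17311955 to 25750311 counts in all, with 11469 to 13524 genes at 10 counts or more. Of the 8 cardiomyocyte markers listed, 7 were in the table and all were detected in every library, from Pln (24.1 to 1787 CPM) to Myh6 (5303 to 20480). The 7 fibroblast markers tested were also detected in every library, from Tcf21 (0.809 to 30.4 CPM) to Col1a1 (9133 to 37440). Mitochondrially encoded genes took 5.54% to 38.2% of the counts. The 38.2% belongs to replicate 1 of the control mimic with doxorubicin, which also had the fewest genes. Replicates were unevenly close: 6 pairs, 1 in each of the 3 untreated mimic groups and 3 in miR-455 with doxorubicin, had a chi-square per degree of freedom of 5.79 to 9.79 against 51.4 to 575 for the other 18 pairs, so the spread within those groups may be technical. Levels below are CPM (counts scaled to the total of the library, with TMM normalisation), replicates 1, 2 and 3 in order. They are not divided by transcript length and are compared within a gene, not between genes.

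Med30 and Galc had the largest differences among the genes that were higher. Med30 encodes a metazoan subunit of Mediator, the complex that links transcription factors to RNA polymerase II. Untreated, Med30 stood at 3.24, 7.22 and 1.83 CPM with the control mimic, at 18.0, 19.9 and 15.0 with miR-222, at 16.1, 14.3 and 20.1 with miR-455, and at 18.4, 21.1 and 37.9 with both. With doxorubicin it stood at 5.86, 2.42 and 2.74 CPM with the control mimic, at 27.9, 27.3 and 28.5 with miR-222, at 34.7, 32.5 and 32.9 with miR-455, and at 32.4, 51.2 and 61.3 with both. All 9 mimic libraries lay above the 3 control libraries in each treatment, and the ratio of the means was 4.9 untreated and 9.94 with doxorubicin. The log2 fold changes against the control mimic ran from 2.04 ± 0.41 (SE; miR-455, untreated) to 3.74 ± 0.44 (both, doxorubicin). Without replicate 2 of the untreated control mimic, the untreated values of 2.10, 2.04 and 2.65 became 2.77, 2.71 and 3.32.

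Galc encodes galactosylceramidase, the lysosomal enzyme that removes galactose from galactosylceramide. Untreated, Galc stood at 2.60, 2.98 and 1.65 CPM with the control mimic, at 10.0, 11.7 and 8.68 with miR-222, at 5.74, 6.85 and 8.78 with miR-455, and at 11.5, 13.4 and 9.62 with both. With doxorubicin the values were 1.01, 6.24 and 5.23 CPM with the control mimic, 24.3, 28.8 and 27.3 with miR-222, 27.3, 28.1 and 24.4 with miR-455, and 30.4, 27.9 and 37.6 with both. The control and mimic libraries did not overlap in either treatment. In the order of group means only 1 of 7 neighbouring steps was free of overlap, the one between the 3 mimic groups with doxorubicin and the same groups untreated. Against the control mimic, Galc had log2 fold changes from 1.56 ± 0.40 (SE; miR-455, untreated) to 2.92 ± 0.41 (both, doxorubicin).

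Agpat5 encodes an acyltransferase of the family that turns lysophosphatidic acid into phosphatidic acid. Untreated, Agpat5 stood at 19.9, 17.5 and 9.11 CPM with the control mimic, at 63.5, 68.3 and 67.7 with miR-222, at 37.1, 46.9 and 38.3 with miR-455, and at 56.1, 58.2 and 92.0 with both. With doxorubicin it stood at 9.59, 14.4 and 11.1 CPM with the control mimic, at 39.0, 27.1 and 33.7 with miR-222, at 35.9, 44.7 and 35.5 with miR-455, and at 45.7, 46.5 and 45.9 with both. Every mimic library lay above every control library of its treatment, and the ratio of the means was 3.78 untreated and 3.37 with doxorubicin. The untreated miR-455 libraries lay below all those of miR-222 and of both. The log2 fold changes were 2.10, 1.39 and 2.15 untreated and 1.51, 1.72 and 1.97 with doxorubicin (SE 0.26 to 0.27), in the order miR-222, miR-455, both.

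Iscu encodes the scaffold protein on which mitochondrial iron-sulfur clusters are built. Untreated, Iscu stood at 33.6, 32.8 and 33.9 CPM with the control mimic, at 72.9, 70.5 and 74.0 with miR-222, at 87.1, 69.7 and 88.3 with miR-455, and at 75.7, 82.7 and 61.6 with both. With doxorubicin the values were 46.7, 107.9 and 70.8 CPM with the control mimic, 193.2, 152.7 and 179.2 with miR-222, 184.6, 186.7 and 181.1 with miR-455, and 170.0, 129.0 and 151.6 with both. The ratio of the means of mimic and control libraries was 2.27 untreated and 2.26 with doxorubicin. The libraries did not overlap, but the lowest mimic library stood 1.82-fold above the highest control untreated and 1.2-fold with doxorubicin. The 6 log2 fold changes ran from 1.00 to 1.29 (SE 0.22). The control libraries were tight untreated and spread more than 2-fold with doxorubicin.

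Ddt encodes D-dopachrome tautomerase, a cytokine-like relative of macrophage migration inhibitory factor (MIF). Untreated, Ddt ranged from 7.79 to 17.9 CPM in the 3 control libraries, from 35.8 to 63.4 with miR-222, from 27.7 to 73.2 with miR-455 and from 23.7 to 71.5 with both. With doxorubicin the ranges were 14.2 to 18.4 CPM in the control libraries, 51.8 to 98.3 with miR-222, 66.6 to 72.4 with miR-455 and 48.0 to 72.5 with both. Ddt did not overlap between control and mimic libraries, but in the untreated mimic groups 1 of 3 libraries lay well below the others. In each of these groups the others were the close pair described above, whose closeness may be technical. The log2 fold changes of Ddt ran from 1.95 to 2.30 (SE 0.41 to 0.42), a narrow span beside the spread within its groups.

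Dynlt3 encodes a light chain of cytoplasmic dynein, the motor that carries cargo along microtubules. Dynlt3 ranged from 15.5 to 27.3 CPM in the untreated control libraries and from 41.9 to 108.8 in the untreated mimic libraries. With doxorubicin the ranges were 23.5 to 65.7 and 79.1 to 195.5 CPM. Control and mimic libraries did not overlap, yet all 7 neighbouring steps in the order of the 8 groups did, because the spread within groups was wide. In log2 fold change Dynlt3 ran from 1.21 to 1.84 (SE 0.33 to 0.34).

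Anpep encodes aminopeptidase N (CD13), a membrane enzyme that trims peptides at the cell surface. Anpep ranged from 21.9 to 32.2 CPM in the untreated control libraries and from 50.7 to 81.7 in the untreated mimic libraries. With doxorubicin it ranged from 34.7 to 40.7 and from 66.4 to 113.5 CPM. No libraries overlapped, and the ratio of the means was 2.22 untreated and 2.20 with doxorubicin. The log2 fold changes, from 0.88 to 1.45 (SE 0.18), had the smallest errors of the 10 genes.

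**Figure D1:**
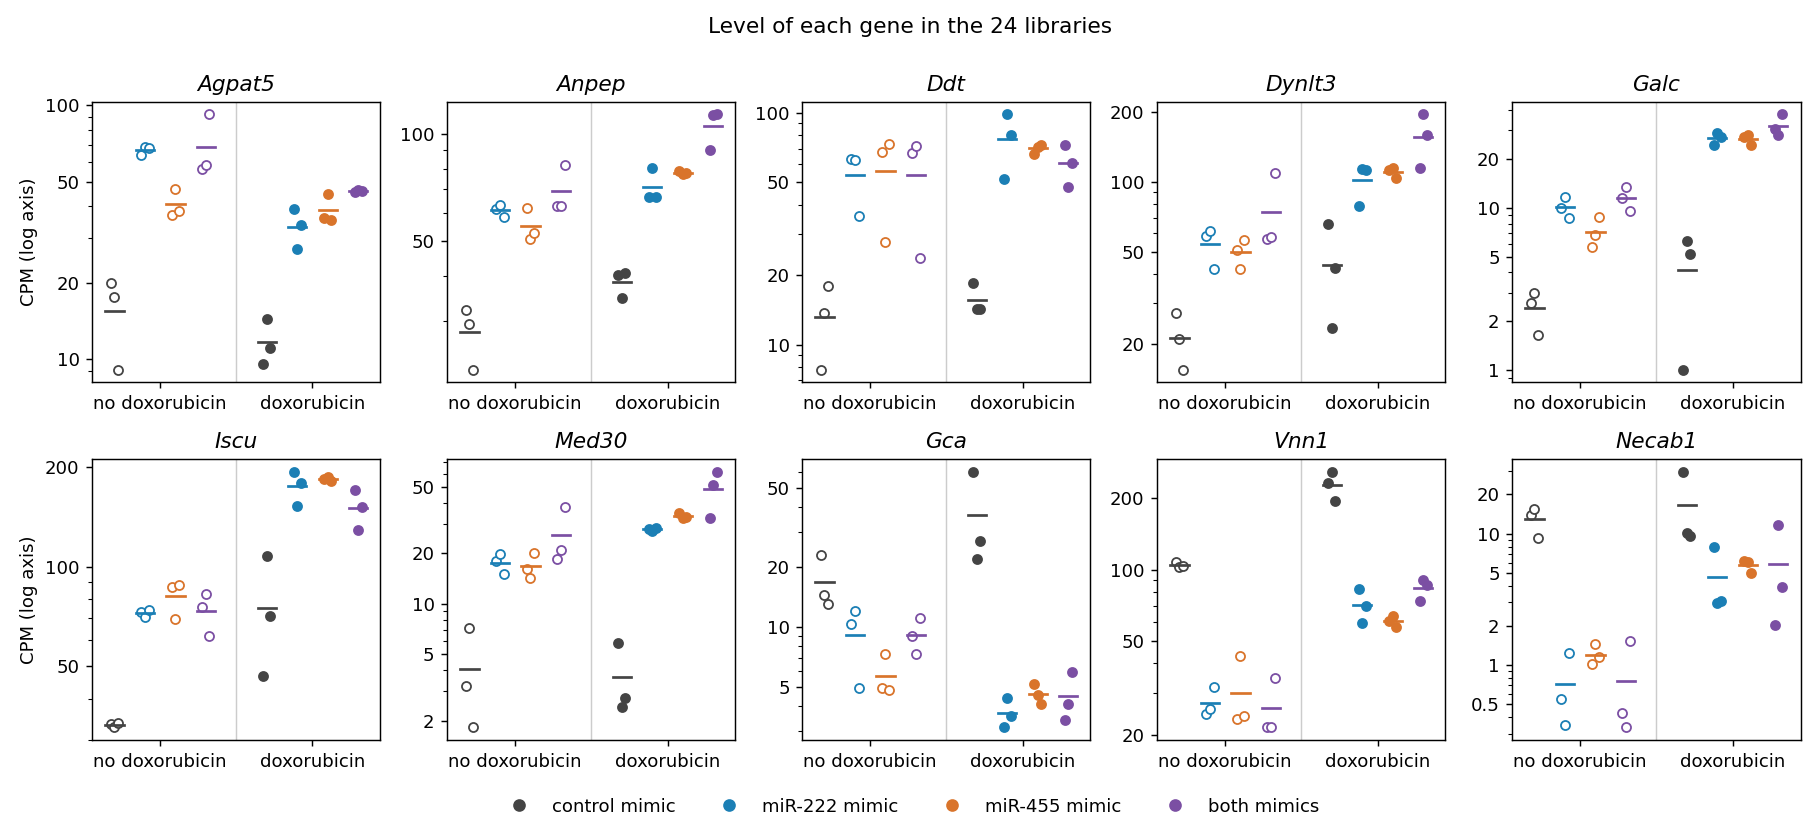
CPM of each of the 10 genes (log axis) in the 24 libraries, untreated (open points) and with doxorubicin (filled points). Colours mark the mimic condition and bars the group means; the black control points lie apart from the coloured ones in every panel except Necab1 with doxorubicin.

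Vnn1 was the most even of the genes that were lower. It encodes vanin 1, a pantetheinase that releases cysteamine and pantothenate (vitamin B5) from pantetheine, a breakdown product of coenzyme A, and it is a known target of PPAR-alpha in liver. Untreated, Vnn1 stood at 107.7, 102.9 and 103.2 CPM with the control mimic, at 24.4, 25.5 and 31.8 with miR-222, at 23.2, 43.0 and 24.0 with miR-455, and at 21.5, 21.5 and 34.6 with both. With doxorubicin it stood at 232.0, 259.0 and 194.7 CPM with the control mimic, at 83.0, 59.5 and 70.3 with miR-222, at 60.6, 63.6 and 57.3 with miR-455, and at 73.5, 90.6 and 85.7 with both. The mean of the control libraries was 3.77-fold higher untreated and 3.19-fold higher with doxorubicin, and even the mimic libraries with doxorubicin lay below the untreated control. The 6 log2 fold changes ran from -2.02 to -1.46 (SE 0.24).

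Gca encodes grancalcin, a penta-EF-hand calcium-binding protein first described in neutrophils. Untreated, Gca stood at 23.0, 14.4 and 13.0 CPM with the control mimic, at 10.3, 12.1 and 4.90 with miR-222, at 4.91, 7.26 and 4.78 with miR-455, and at 8.96, 7.33 and 11.1 with both. With doxorubicin the values were 60.2, 22.0 and 27.2 CPM with the control mimic, 3.12, 4.39 and 3.54 with miR-222, 5.13, 4.54 and 4.08 with miR-455, and 3.38, 4.11 and 5.92 with both. Control and mimic libraries did not overlap in either treatment, but untreated the highest mimic library was within 1 CPM of the lowest control. Gca had log2 fold changes of -0.89, -1.57 and -0.88 untreated (SE 0.38 to 0.39) and -3.31, -2.99 and -3.03 with doxorubicin (SE 0.41 to 0.42). Blood markers were at or near 0 in all libraries (summed, at most 0.309 CPM; S100a9 at 0 in all 24).

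Necab1 encodes a neuronal EF-hand calcium-binding protein, and it was the least even of the 10. Untreated, Necab1 stood at 14.1, 15.4 and 9.33 CPM with the control mimic, at 0.549, 0.35 and 1.24 with miR-222, at 1.01, 1.45 and 1.14 with miR-455, and at 0.427, 0.335 and 1.51 with both. With doxorubicin the values were 29.7, 10.2 and 9.58 CPM with the control mimic, 7.99, 2.95 and 3.06 with miR-222, 6.16, 6.13 and 5.00 with miR-455, and 2.01, 11.6 and 3.93 with both. Untreated, the mean of the control libraries was 14.5-fold that of the mimic libraries, with no overlap; with doxorubicin replicate 2 of both mimics lay above 2 of the 3 control libraries. The log2 fold changes were -4.18, -3.42 and -4.10 untreated (SE 0.71 to 0.73) and -1.82, -1.51 and -1.49 with doxorubicin (SE 0.65 to 0.66). Without replicate 1 of the control mimic with doxorubicin, the latter became -1.08, -0.77 and -0.76, without replicate 2 of both mimics the last was -2.47, and without replicate 1 of miR-222 with doxorubicin the first was -2.45. Untreated, the miR-222 value was -4.85 without replicate 3 of that group, and the value for both was -5.10 without replicate 3 of that group.

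In all, the 9 mimic libraries lay above the 3 control libraries for 7 of 7 higher genes in each treatment, where 3.63% of all tested genes did so untreated and 2.73% with doxorubicin. They lay below for 3 of 3 lower genes untreated and 2 of 3 with doxorubicin, against 3.61% and 2.64% of all tested genes. In both treatments together 7 of 7 lay above (0.552% of all genes) and 2 of 3 below (0.594%). The choice of the genes set these counts, and nothing is read from them. The median log2 fold change of the 7 higher genes ran from 1.39 to 2.04 over the 6 comparisons and that of the 3 lower genes from -2.02 to -1.49, while the median of all tested genes stayed between -0.06 and 0.07. In bulk RNA, fewer cells of a type and less RNA per cell cannot be told apart.

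**Figure D2:**
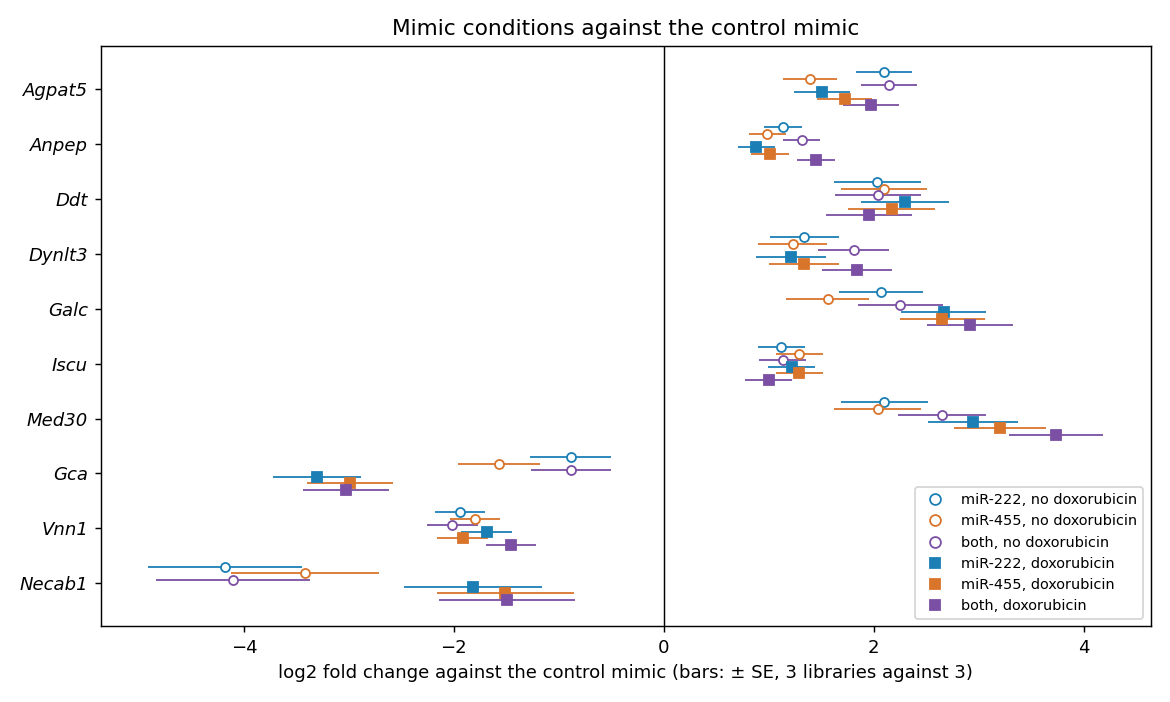
Log2 fold change against the control mimic (horizontal axis; bars give the standard error) for the 10 genes in the 6 comparisons. The 7 upper genes lie to the right of 0 and the 3 lower genes to the left in all 6 comparisons, with Gca further from 0 with doxorubicin and Necab1 further from 0 untreated.

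How far the rule reaches beyond these 10 was counted over the whole table with edgeR's quasi-likelihood test at an adjusted p under 0.05 (Benjamini-Hochberg), as a description. In all 6 comparisons 20 genes (0.14% of 14303) were called higher and 13 (0.0909%) lower. Of these 33 genes 8 were among the 10: all 7 higher genes and Vnn1. By mean log2 fold change Med30 ranked 1, Galc 2, Ddt 4, Agpat5 5, Dynlt3 10, Iscu 15 and Anpep 16 among the 20, and Vnn1 ranked 5 among the 13. Gca and Necab1 were not among the 33. These counts restate the rule and are no test of the 10. They are bounded by the comparison with the fewest calls, and those calls depend strongly on the fit, as given under the processing below. With only the groups compared, no gene was called for both mimics untreated, so none of the 33 would then be called in all 6.

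Markers of other cell types were summed in the same libraries. Summed endothelial markers stood at 43.9 to 66.6 CPM in the untreated control libraries and at 16.7 to 40.3 in the untreated mimic libraries, without overlap. With doxorubicin they stood at 27.1 to 36.2 and 11.5 to 28.5, which overlap. Of 4 tested endothelial markers, 1 was called higher with miR-222 untreated and 1 lower in each of the 3 comparisons with doxorubicin. None was called in the other untreated comparisons. Summed macrophage and leukocyte markers were between 3.75 and 12.4 CPM in all libraries, with Adgre1 at 0 in 20 of 24 and Cd163 in 21, and none of 5 tested was called. Cardiomyocyte sums were 13290 to 17150 CPM in the untreated control and 15330 to 25160 in the untreated mimic libraries, and 17720 to 23750 and 14080 to 37050 with doxorubicin. Smooth muscle and pericyte sums were 2753 to 3831 and 1080 to 3067 CPM untreated, and 1822 to 4234 and 1217 to 4441 with doxorubicin. Summed fibroblast markers overlapped between control and mimic libraries (19170 to 29720 and 14790 to 28450 CPM untreated, 23150 to 52780 and 16150 to 30700 with doxorubicin), as did those of neurons and glia (52.8 to 77.4 and 43.6 to 100.3 untreated, 120.0 to 244.0 and 69.1 to 229.0 with doxorubicin). Although these sums overlapped, 2 of 7 fibroblast markers were called lower in each of the 3 untreated comparisons, and 1 of 7 with miR-222 and with miR-455 under doxorubicin. Smooth muscle and pericyte markers were called lower with miR-222 (2 of 5) and both (1 of 5) untreated. Of 7 cardiomyocyte markers, 1 was called higher with miR-455 untreated and 1 lower with miR-222 and doxorubicin. Of 5 neuron and glia markers, 1 was called lower with miR-222 and doxorubicin. The mitochondrial share was 9.11% to 20.3% in the untreated control and 5.54% to 24.9% in the untreated mimic libraries, and 8.83% to 38.2% and 8.61% to 21.3% with doxorubicin. The part of these in the differences of the 10 genes was not tested.

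The mimic conditions were then set against one another, averaged over doxorubicin and none (6 libraries against 6). These comparisons leave out the control libraries but use the mimic libraries from which the genes were chosen, and a choice for a shared direction favours small differences. With edgeR's test 0 of 10 genes were called between miR-222 and miR-455 (8.29% of all genes), 0 between both mimics and miR-222 (0.336%) and 0 between both and miR-455 (6.96%); at an unadjusted p under 0.05 the counts were 0, 3 and 3. DESeq2 called 0, 1 (Anpep, log2 fold change 0.38, adjusted p = 0.0469) and 2 (Agpat5, 0.52, adjusted p = 0.0391; Anpep, 0.40, adjusted p = 0.0127).

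A missed threshold does not show that the conditions act alike, so the intervals are given. Between miR-222 and miR-455 the widest belonged to Necab1, with a log2 difference of -0.53 (95% interval -1.5 to 0.44). Anpep differed by 0.37 (0.11 to 0.63) between both mimics and miR-222, and by 0.38 (0.12 to 0.64) between both and miR-455, with edgeR adjusted p = 0.162 and 0.0664. Dynlt3 was higher with both mimics than with miR-222 by 0.55 (0.07 to 1.03, adjusted p = 0.237), and Med30 by 0.67 (0.09 to 1.25, adjusted p = 0.232). Agpat5 was higher with both than with miR-455 by 0.50 (0.13 to 0.88, adjusted p = 0.0949). Without the 4 libraries with the fewest genes, Galc (0.59, adjusted p = 0.0285) and Necab1 (-1.30, adjusted p = 0.0393) were called between both and miR-455. Anpep was called there without replicate 1 of both mimics with doxorubicin (adjusted p = 0.0347), or without replicate 1 (0.0464) or 3 (0.0365) of the untreated control mimic, whose libraries only share the estimate of spread, and Agpat5 without the latter (0.0353).

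**Figure D3:**
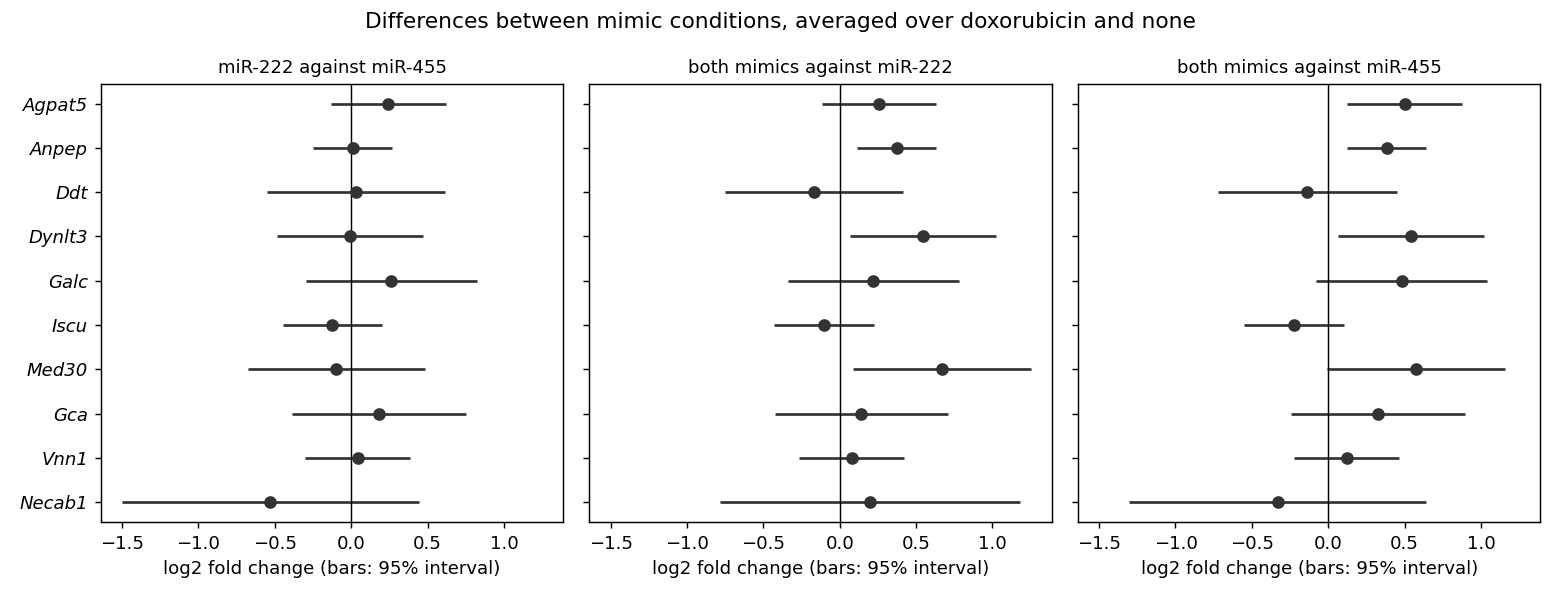
Log2 difference between mimic conditions, averaged over doxorubicin and none, for the 10 genes (points; bars give the 95% interval). Most intervals cross 0; Anpep and Dynlt3 lie above 0 in both panels that involve both mimics.

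After TMM scaling, doxorubicin raised 7 of the 10 genes and lowered 1. The TMM factors were 1.041 to 1.366 in the untreated libraries and 0.572 to 1.008 with doxorubicin. A lower factor raises the CPM of its library, and the part of this difference in the doxorubicin values was not tested. The effect was averaged over the 4 mimic conditions (12 libraries against 12), a contrast that does not depend on any difference between mimics and so was not used to choose the genes. With edgeR's test at an adjusted p under 0.05, 48.1% of all tested genes were called (23.8% higher, 24.3% lower), so 8 of 10 is read against a background of nearly 1 gene in 2; DESeq2 also called 8.

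Necab1 rose the most, by 2.07 ± 0.34 on the log2 scale (SE; adjusted p = 4.15e-05, edgeR), although by arm its values were 0.35 with the control mimic and 2.71, 2.26 and 2.95 with miR-222, miR-455 and both. Galc rose by 1.40 ± 0.19 (adjusted p = 6.54e-06), Vnn1 by 1.30 ± 0.12 (2.55e-08), Iscu by 1.16 ± 0.11 (5.13e-08) and Dynlt3 by 1.04 ± 0.16 (2.62e-05). Iscu, Vnn1 and Dynlt3 were higher with doxorubicin in each of the 4 arms, by 1.03 to 1.27, 1.01 to 1.69 and 0.91 to 1.15. The group means of Galc, Anpep, Ddt and Necab1 were also higher with doxorubicin in each arm. In the control arm the libraries of Dynlt3, Galc, Ddt and Necab1 overlapped between the treatments. Thus the lysosomal enzyme, the iron-sulfur scaffold, the dynein chain and the pantetheinase all rose with doxorubicin, whichever side of the control mimic they stood on.

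Med30 rose by 0.59 ± 0.20 (adjusted p = 0.0188, edgeR), with -0.18 in the control arm and 0.66, 0.98 and 0.90 in the mimic arms. Anpep rose by 0.45 ± 0.09 (adjusted p = 0.000272). Agpat5 fell by 0.51 on the log2 scale (SE 0.13, adjusted p = 0.00235), with arm values of -0.41, -1.0, -0.08 and -0.58. Ddt was not called (0.31 ± 0.20, 95% interval -0.10 to 0.72, adjusted p = 0.211), and neither was Gca (-0.38 ± 0.19, interval -0.78 to 0.02, adjusted p = 0.108).

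Gca is the gene for which the average says least about the arms: with doxorubicin it was higher by 1.11 in the control arm and lower by values of -1.30, -0.30 and -1.03 in the mimic arms. Without replicate 1 of the control mimic with doxorubicin, the library at 60.2 CPM, its average was -0.52 (adjusted p = 0.0157), without replicate 3 of untreated miR-222 it was -0.48 (0.0331), and with the 4 libraries poorest in genes left out -0.44 (0.0307); each of these makes 9 of 10 called. Differences between the control arm and a mimic arm reuse the libraries that chose the genes and were not tested. Between the mimic arms, a comparison added after the data were seen, edgeR called none of the 10 genes (and 0 of 14303); at an unadjusted p under 0.05 the count was 1 for miR-222 minus miR-455 (Agpat5) and 0 for the other two, and DESeq2 called none of the 10 (and 42, 3 and 27 of all genes, for miR-222 minus miR-455, both minus miR-222 and both minus miR-455).

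**Figure D4:**
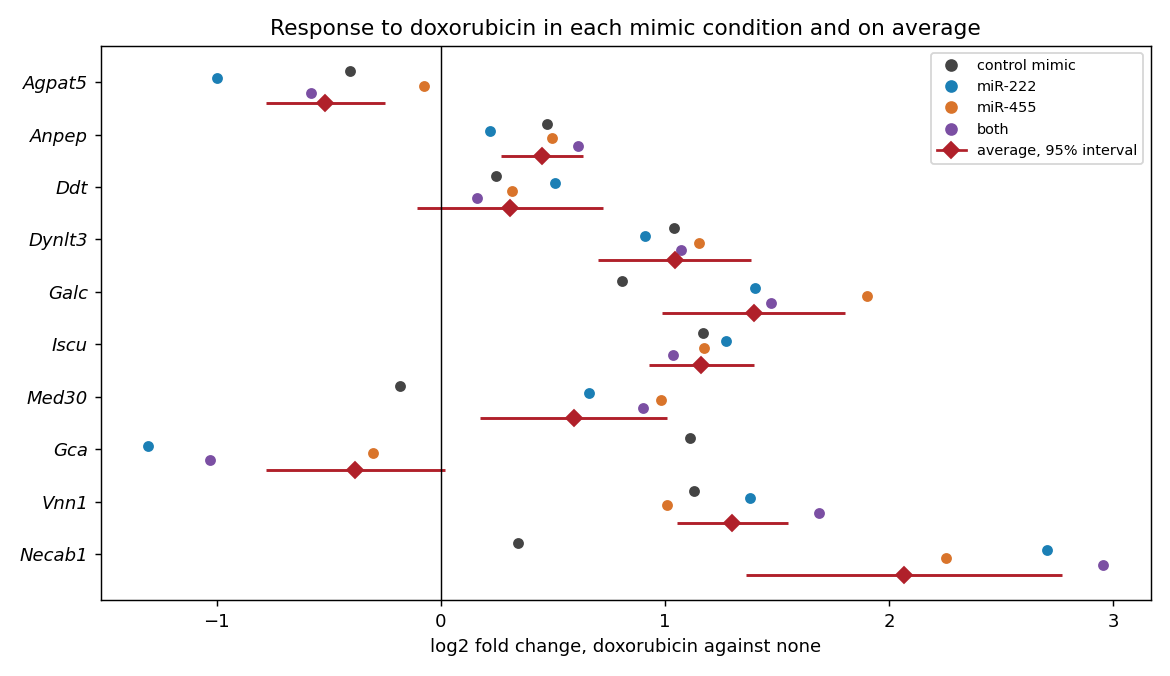
Log2 fold change of doxorubicin against none for the 10 genes, averaged over the 4 mimic conditions with its 95% interval and for each mimic condition. Iscu, Vnn1, Dynlt3, Galc, Anpep, Ddt and Necab1 lie to the right of 0 in every condition. Gca lies to the right with the control mimic (1.11) and to the left with the others.

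The genes that work beside these 10 were taken as 9 lists of 138 genes by textbook role, 135 of them in the table and 130 tested. In the 6 comparisons with the control mimic edgeR called 22, 10 and 20 of 130 untreated (miR-222, miR-455, both; 16.9%, 7.69% and 15.4%, against 8.97%, 4.72% and 7.06% of all genes). With doxorubicin it called 4, 7 and 6 (3.08%, 5.38% and 4.62%, against 3.95%, 2.5% and 5.55%). For doxorubicin itself 45 rose and 26 fell (54.6%, against 48.1% of all genes, 23.8% higher and 24.3% lower); the doxorubicin counts of the single lists below are to be read against the same shares. Of the 130 genes 93 were called in none of the 6, and 1, S100a4, was called the same way in all 6. The untreated counts depend on single libraries: they ran from 6 to 33, 0 to 26 and 3 to 34 when 1 library was left out.

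Around Galc, the genes of lysosomal sphingolipid breakdown did not share its direction: of 14 tested, 2, 0 and 1 were higher and 1, 2 and 2 lower untreated, and 0 higher and 0, 3 and 2 lower with doxorubicin. Glb1, the beta-galactosidase that acts on gangliosides, fell with miR-455 (log2 fold change -1.08 untreated, -1.94 with doxorubicin) and with both (-0.70, -1.16), and stood at 0.25 and -0.07 with miR-222. Gm2a, the GM2 activator, fell with miR-455 (-0.81 and -2.06) and with both under doxorubicin (-1.08). Scarb2, the receptor that brings glucocerebrosidase to lysosomes, fell with miR-455 and doxorubicin (-1.10). Averaged over the 6 comparisons, the 14 had a median log2 fold change of 0.18, where Galc was at 2.35 and the median of all genes stayed within the range given above. With doxorubicin itself 11 of the 14 rose and 0 fell, and Galc rose too.

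Around Iscu, 17 genes of iron-sulfur cluster assembly gave 1, 1 and 3 higher calls and 0 lower untreated, and 1 higher (both) and 1 lower (miR-455) with doxorubicin. Isca1, a late-acting assembly factor, rose with miR-455 (1.40) and both (1.08) untreated. Hspa9, the mitochondrial chaperone of the pathway, rose with both (1.36). Nfs1, the cysteine desulfurase that supplies sulfur to Iscu, rose with miR-222 untreated (0.75) and fell with miR-455 and doxorubicin (-0.81). The median of the 17 over the 6 comparisons was 0.15, and Iscu was at 1.18. With doxorubicin 9 of 17 rose and 4 fell.

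Around Med30, 28 other Mediator subunits were tested: 0 were called higher in any of the 6 comparisons, and 24 were called in none. Med15 fell with miR-222 untreated (-0.98), Med1 with miR-455 untreated (-0.93) and Med28 with miR-455 and doxorubicin (-0.73). Averaged over the 6 comparisons, the 28 subunits ranged from -3.06 to 0.84 (median -0.13), and Med30 was at 2.78. The low end was Med22 alone, whose 6 values ran from -8.3 to 3.2 and were not called. The next lowest subunit was at -1.26. Doxorubicin raised 1 and lowered 5 of them.

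Around Agpat5, 16 genes of glycerolipid synthesis and remodelling (acyltransferases and the 3 lipins, which are phosphatidate phosphatases) gave 2, 1 and 2 higher and 2, 0 and 2 lower calls untreated, and 1 lower call with doxorubicin (Lpcat3 with miR-455, -1.14). Lpin1 supplied 3 of these 5 higher calls (2.28, 1.99 and 1.99). Gpam, which starts glycerolipid synthesis in mitochondria, rose with miR-222 (1.16) and both (0.83) untreated, and Lclat1, which remodels cardiolipin, fell with the same (-1.90 and -1.34). The median of the 16 was 0.24, with Agpat5 at 1.81. The paralogs Agpat1, Agpat2, Agpat3 and Agpat4 had means of 1.3, 0.86, 0.34 and 0.46, in the direction of Agpat5. None of these paralogs was called in any of the 6 comparisons. Doxorubicin lowered 7 and raised 2 of the 16, and Agpat5 fell too. Around Dynlt3, 8 dynein chains and 3 dynactin subunits (Dctn1, Dctn2 and Dctn3) gave 2 higher and 1 lower calls untreated and 1 lower with doxorubicin: Dynll2 rose with miR-222 (0.64) and both (0.72), and Dync1li2 fell with miR-222 in each treatment (-0.70 and -0.76). The median of these 11 was 0.10, with Dynlt3 at 1.46, and doxorubicin raised 5, among them the 3 dynactin subunits, and lowered 2.

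Around Anpep, none of 9 peptidases, most of them aminopeptidases, was called higher. Npepps and Lap3 among them are cytosolic. Mme (neprilysin) fell in all 3 untreated comparisons (-2.72, -1.85 and -2.23), and Dpp4, a dipeptidyl peptidase, with both untreated (-3.86). The median of the 9 was -0.22, with Anpep at 1.13, and doxorubicin raised 5 of them and lowered 0. Around Ddt, MIF itself was not among the genes tested. Of the 4 that were, Cd74, the MIF receptor, rose with miR-222 (5.33, SE 1.53) and both (5.56, SE 1.54) untreated, with wide errors. With doxorubicin Cd74 stood at 1.10, 0.28 and 0.94 (miR-222, miR-455, both), not called. Cd44, the partner of Cd74, fell with miR-222 (-0.67 untreated, -1.73 with doxorubicin) and both with doxorubicin (-1.36). The median of the 4 was 0.01, with Ddt at 2.10, and doxorubicin raised 3 of them. Cd74 is also an immune-cell gene, and the macrophage and leukocyte sums are given above.

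Around Vnn1, 19 genes of coenzyme A turnover and PPAR-alpha targets were tested, and 12 were called in none of the 6 comparisons: 4, 1 and 4 were higher and 1, 1 and 1 lower untreated, and 1, 0 and 0 higher with doxorubicin. Acot2, a mitochondrial acyl-CoA thioesterase, rose with miR-222 (2.54) and both (2.53) untreated. Pdk4, which switches off pyruvate dehydrogenase, rose with the same (2.80 and 2.51). It stood at 2.56 with miR-455 untreated and at -0.67, -2.55 and -0.77 with doxorubicin, none of them called. Pank3, a pantothenate kinase of coenzyme A synthesis, fell in all 3 untreated comparisons (-0.97, -0.98 and -1.17). The paralog Vnn3 was called in none. The median of the 19 was 0.71, with Vnn1 at -1.80, and doxorubicin raised 4 and lowered 6 of them.

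Around Gca and Necab1, 12 EF-hand genes gave 0, 1 and 0 higher and 2, 1 and 1 lower calls untreated and 1, 1 and 2 lower with doxorubicin. S100a4, a calcium-binding protein of motile and fibroblast-like cells, accounts for 1 lower call in each comparison (-1.09, -0.90 and -1.13 untreated, -1.28, -1.02 and -1.10 with doxorubicin, SE 0.25). S100a11 fell with miR-222 untreated (-2.65) and S100a6 with both and doxorubicin (-1.81). The median of the 12 was -0.46, with Gca at -2.11 and Necab1 at -2.75, and doxorubicin raised 5 and lowered 2 of them.

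**Figure D5:**
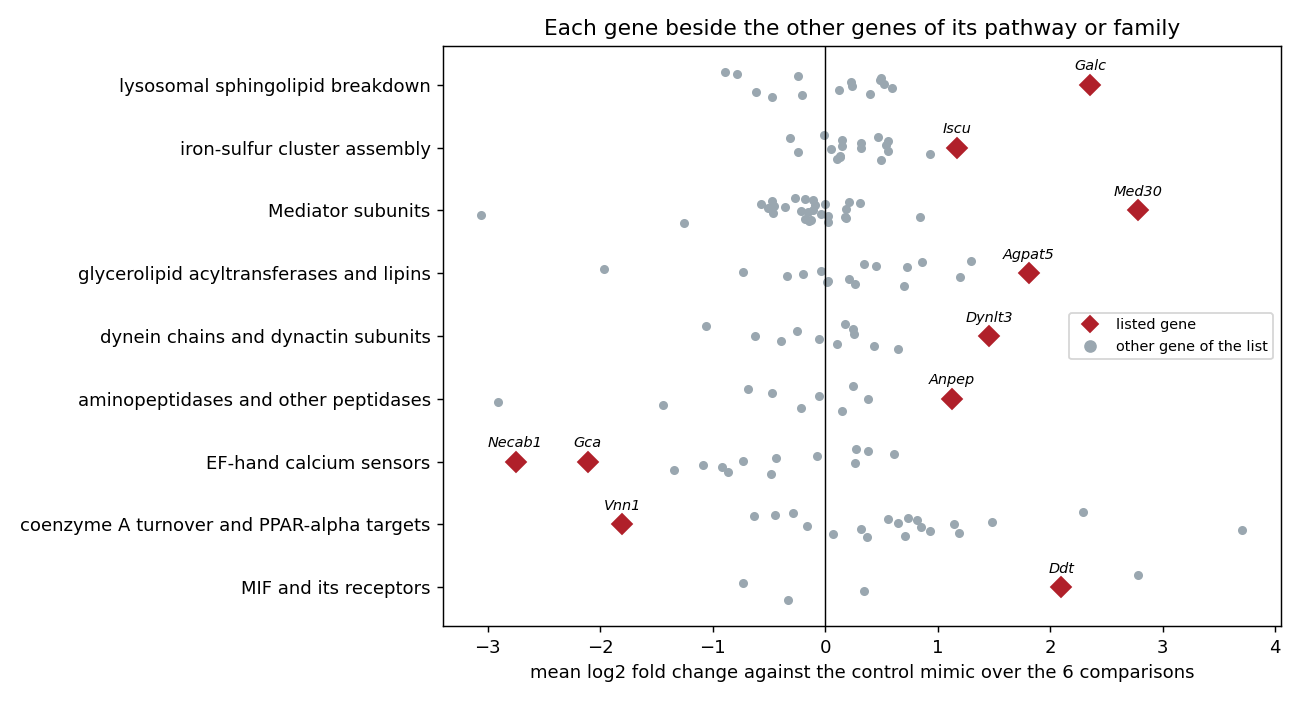
Mean log2 fold change over the 6 comparisons with the control mimic for each companion gene (points) of the 9 lists, with the member of each list as a diamond. Only 1 companion, Cd74 in the list around Ddt, is as far from 0 in the member's direction as the member.

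The 10 genes do not lie side by side. In the RefSeq gene order (GRCr8, used for order only, since the counts rest on Rnor_6.0) they fall on 9 chromosomes. Of the 20 genes next to them 13 were tested, and 1 was called in 1 of 78 tests: Ext1, next to Med30, was lower with both mimics untreated (-1.06), opposite to Med30.

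Promoters are printed for 1 gene of each direction, Galc and Gca, chosen after the motifs were counted because they held no motif in common. RefSeq's table (GRCr8) holds 5 of the 10 promoters, those of Anpep, Ddt, Galc, Iscu and Gca. Each is 300 bases around the gene's start, 5′ to 3′ on the gene's strand. Capitals mark the E-box CACGTG, the GC box GGGCGG and the CCAAT box CCAAT on either strand; the TATA box TATAAA and the CRE TGACGTCA were searched too. The windows are chr6:123245510-123245809 (-) for Galc and chr3:67705640-67705939 (+) for Gca.
Galc: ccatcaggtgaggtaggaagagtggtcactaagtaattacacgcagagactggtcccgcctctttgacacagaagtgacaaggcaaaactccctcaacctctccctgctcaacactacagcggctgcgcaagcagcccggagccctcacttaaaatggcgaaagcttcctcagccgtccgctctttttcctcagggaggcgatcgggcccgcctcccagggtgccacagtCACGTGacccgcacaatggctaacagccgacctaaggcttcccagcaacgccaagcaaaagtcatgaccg
Gca: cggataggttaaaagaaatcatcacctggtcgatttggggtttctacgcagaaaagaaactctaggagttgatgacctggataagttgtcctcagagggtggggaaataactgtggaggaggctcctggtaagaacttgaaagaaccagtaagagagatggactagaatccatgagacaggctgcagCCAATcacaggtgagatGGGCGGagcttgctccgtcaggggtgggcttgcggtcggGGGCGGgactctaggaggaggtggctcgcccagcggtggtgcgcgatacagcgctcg
The E-box, a site of the bHLH class, was found in Galc alone of the 5 and in 6.42% of 33469 promoters of that length. The GC box was in Gca and Iscu (33.1% of all), the CCAAT box in Gca and Ddt (37.5%), the CRE in Iscu (1.83%) and the TATA box in none of the 5 (14.2%). These are matches of letters and describe nothing about binding.

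The genes most like each of the 10 over the 24 libraries were taken by Pearson's r of log2 CPM among 10060 genes with a mean of at least 5 CPM, as a description; all libraries share the 8 groups, and doxorubicin moves many genes. Among the 10 themselves, Anpep and Dynlt3 (r = 0.942) and Anpep and Med30 (0.938) were closest on the higher side, and Vnn1 and Necab1 (0.908) on the lower, where the other 2 pairs were weaker (Gca and Vnn1 0.481, Gca and Necab1 0.356). The 21 pairs of higher genes had r from 0.366 to 0.942 (median 0.765), and the 21 pairs of opposite genes from -0.816 to -0.06 (median -0.568). Dynlt3 was most like Ndufv2 (0.97), Sdhaf2 (0.964) and Atp6v1a (0.956), and Anpep after Dynlt3 like Atp6v1a (0.941). Ddt was most like Pgm1 (0.937), Got1 (0.922) and Acy1 (0.914). Galc was most like Emc1 (0.922), Plbd1 (0.906) and Mrpl10 (0.9), and Iscu like Mrps30 (0.918), Emc1 (0.913) and Eif3k (0.906). Med30 followed Anpep, then Rab3b (0.929) and Tcaim (0.913). Agpat5 had the weakest likenesses, Kcnv2 (0.85), Scrn3 (0.849) and Arel1 (0.828). On the lower side, Vnn1 was most like Reep3 (0.946), Rcn2 (0.939) and Actr2 (0.939), Gca like Scamp1 (0.913), Dnajc9 (0.879) and Cpne3 (0.865), and Necab1 like S100a10 (0.955) and Itgbl1 (0.915).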

How the data were processed

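PolyA RNA was sequenced from 24 libraries, 8 groups of 3 by label. The authors deposited 1 table of expected counts per gene symbol (21767 symbols). The tools Salmon and DESeq2 and the build Rnor_6.0 are named, without versions or roles, per the submitters' processing notes. Of the values 7.35% (38406) were not whole and were rounded, and 3087 symbols were at 0 in every library.

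The test was the quasi-likelihood F test of edgeR 4.0.16 in R 4.3.3, on the 14303 genes that passed filterByExpr, with TMM scaling and 1 mean per group (all 24 libraries fitted together, Benjamini-Hochberg within a comparison over all genes tested, calls at an adjusted p under 0.05). The standard error is the log2 fold change divided by the square root of F. Totals of 17311955 to 25750311 counts give the precision, and intervals cover the spread between libraries. The test was first checked on simulated counts drawn independently for each library. That check does not cover replicates as close as the close pairs above.

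The members and lists were chosen with earlier results of these data known. Named genes are the 10 members and, per member, the 3 genes with the highest r. From each list, up to 3 genes with the smallest p in the 6 comparisons are named. Pdk4, Vnn3, Lpin1, Med22, Agpat1, Agpat2, Agpat3, Agpat4, the dynactin subunits, Npepps and Lap3 were named after their values were seen. So were the genes outside these that met the rule in all 6. Results for 1 further listed gene are not reported here. Differences between doxorubicin effects of the mimic arms were added after the data were seen. The lists of cell type markers were cardiomyocyte, fibroblast, smooth muscle and pericyte, endothelial, macrophage and leukocyte, neuron and glia, and blood. Alternatives were DESeq2 1.42.0 as test or for size factors, a filter of 1 CPM in 3 libraries or none, only the groups compared, and a replicate block. Others left out each library, the 4 libraries with the fewest genes, or 1 library of each close pair in the untreated mimic groups. The close libraries of miR-455 with doxorubicin were all kept. Replicate numbers did not pair the libraries.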

Additional observations from a re-analysis of the deposited data

How the results depend on the processing

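No member changed sign against the control mimic under any alternative, DESeq2 size factors left all results as they were (shift of the median of all genes at most 0.0334 on the log2 scale), and none of the 8 doxorubicin calls was lost under any alternative. For doxorubicin, fitting only the groups compared is the same fit. The number of members called for doxorubicin was 8 to 9 when 1 library was left out. Between both mimics and miR-455 it was 0 to 2.

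Counts of all genes called are given in the order miR-222, miR-455 and both against the control mimic, untreated then with doxorubicin, then miR-222 against miR-455, both against miR-222 and both against miR-455; companion counts follow the first 6. The values reported were 1283, 675, 1010, 565, 358, 794, 1186, 48 and 995 genes, and 22, 10, 20, 4, 7 and 6 companions (69 in all). Leaving out 1 library gave 300 to 2310, 16 to 1987, 267 to 2718, 263 to 775, 145 to 469, 463 to 1180, 823 to 1498, 16 to 340 and 497 to 1872 genes. Companions then ranged over 6 to 33, 0 to 26, 3 to 34, 2 to 7, 3 to 8 and 4 to 10, and over 39 to 117 in all. The lone libraries of a group were then assumed to vary like the others.

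The DESeq2 test moved the genes to 2376, 1918, 1887, 1047, 654 and 1532 against the control mimic and to 521 and 1893 in the last 2 comparisons, where it called 1 and 2 members, and the companions to 34 and 25 (miR-222 and miR-455 untreated) and 12, 11 and 13 with doxorubicin, 115 in all. With only the groups compared there were 485, 2, 0, 76, 144, 2, 3672, 3 and 586 genes and 7, 0, 0, 1, 4 and 0 companions, 12 in all. Without the 4 libraries with the fewest genes there were 2832, 1994, 3714, 1211, 727, 1873, 3216, 204 and 1539 genes, 2 members between both and miR-455, and 37, 22 and 45 companions untreated, 13 and 14 for miR-455 and both with doxorubicin, 137 in all. With 1 library of each untreated close pair left out, 196, 6, 129 and 356 genes were called in the first 4 comparisons and 532, 4 and 386 between mimics. Companions in the first 4 numbered 3, 0, 1 and 2, 17 in all. With no filter 6 companions were called for untreated miR-455, and with a filter of 1 CPM in 3 libraries 1 member between both and miR-455. The cause of these moves was not tested, beyond the smaller number of libraries in the fits that drop some.

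The replicate number did not pair the libraries: of 84 pairs with the same number 16 had correlated deviations over 0.1 (range -0.581 to 0.453), and 6 of 24 libraries were closest to their own number. With the replicate block, untreated miR-455 called 377 genes and untreated both mimics 12 companions, and it moved no other count by over 1.5 times. Depth limits Necab1 most, with as few as 9 counts in an untreated library of both mimics, and Galc, with 10 counts in replicate 1 of the control mimic with doxorubicin.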

Other observations

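The other 25 genes that edgeR called the same way in all 6 comparisons with the control mimic were named after their values were seen, and the shared control libraries apply to them as well. Which genes meet the rule in all 6 depends on the fit, as described above. On the higher side stood 13 genes, among them 3 of mitochondrial ribosomes (Mrpl10, mean log2 fold change over the 6 comparisons 1.62; Mrpl53, 1.24; Mrps33, 1.03), Rab3b, a small GTPase of vesicle release (2.14), Trappc2l (1.62), Tm7sf3 (1.52), Ndufc1 of respiratory complex I (1.26), Bckdhb of branched-chain amino acid breakdown (1.11), Diablo, which antagonises inhibitors of apoptosis (0.96), and Atp6v1a of the lysosomal proton pump (0.86). On the lower side stood 12, among them Ptn, the growth factor pleiotrophin (-2.63), the basement membrane collagen Col4a4 (-1.97), Rmnd5a (-1.82), Atp6v0d1, another subunit of the proton pump (-1.67), Rcn2 (-1.15), Cd59 (-0.92) and Twsg1 (-0.91). Itgb1, the integrin beta 1 chain, was the most abundant of them in counts (mean 1985 CPM) and had a mean of -1.85, with sizes from 1.42 to 2.25 in the 6 comparisons. Of the 33 genes, 32 had no overlap between the 9 mimic and 3 control libraries in either treatment; the exception was Sem1.

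The proton pump subunits Atp6v1a and Atp6v0d1 were thus called in opposite directions in all 6 comparisons. Both were picked from genes already called in all 6, and the other subunits of the pump are not given here.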
